A study of Mus musculus with 2 samples.

Results

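Antibodies are built from a heavy chain and a light chain, and this account follows the RNA of both in the small intestine of IL-9 transgenic and wild-type mice. The members are all probe sets (groups of short probes that read one transcript) whose annotated symbol field holds a symbol that starts with Igh, Igk or Igl, with Ighmbp2, a helicase gene, left out. The rule uses names only and no measured value. It found 60 of 45101 probe sets, which carry 30 of the 19324 gene symbols on the arrays. Of these probe sets, 23 belong to the heavy chain, 29 to the kappa light chain and 4 to the lambda light chain. The other 4 are caught by spelling: Igll1, a surrogate light chain of developing B cells, and Iglon5, a neural adhesion molecule that is no antibody gene, have 2 probe sets each.

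Small intestinal RNA was read on Affymetrix mouse expression arrays, 1 array for an IL-9 transgenic pool and 1 for a wild-type pool. Both pools held 3 mice on the BALB/c background, 6 to 8 weeks old, with no treatment. The series asks about hypersensitivity to oral antigen and gut permeability under IL-9, a type 2 cytokine that supports mast cells. The labels give neither the promoter of the transgene nor the cells that express it. Pooling hides the spread between animals, and with no replicate array there is no test and no error for any value below. All differences therefore describe these 2 pools only.

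A developing B cell joins variable (V), joining (J) and, for the heavy chain, diversity segments into one exon, which is spliced to a constant (C) region. The heavy constant region sets the class of the antibody: Ighm encodes that of IgM, Igha that of IgA and Ighg3 that of the IgG3 subclass. Plasma cells of the intestinal lamina propria secrete mainly IgA, which epithelial cells carry into the lumen. In mice most antibodies carry a kappa light chain and a minority a lambda chain. The heavy, kappa and lambda loci of the mouse lie on chromosomes 12, 6 and 16. IgE, IgD and the other IgG subclasses were not analysed here.

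The largest differences among the antibody probe sets were in 2 of the lambda light chain, higher in the transgenic pool. The kappa variable segment Igkv15-103, an Ighm probe set and the heavy variable segment Ighv14-2 followed, the last of these lower in the transgenic pool, while the abundant IgA and kappa constant regions differed little. Values are intensities on a linear scale, and differences are the transgenic minus the wild-type pool of log2(intensity + 1), so that 1 on this scale is 2-fold and dim probe sets are understated. Of the 60 members, 6 were higher by 2-fold in the transgenic pool (background over all probe sets 0.277%), 1 was lower by 2-fold (background 0.111%) and 53 differed by less. A total of 50 lay above 0, 9 below 0 and 1 was equal in both pools, so that 83.3% lay above 0 against 50.7% of all probe sets. The median over the members was 0.26, beside 0.0072 over all probe sets. Many of these probe sets share sequence and all come from the same 2 arrays, so they are not independent readings. At 1.5-fold, 12 members were higher (background 1.16%) and 1 was lower (background 1.14%), and at 3-fold there was none in either direction.

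**Figure D1:**
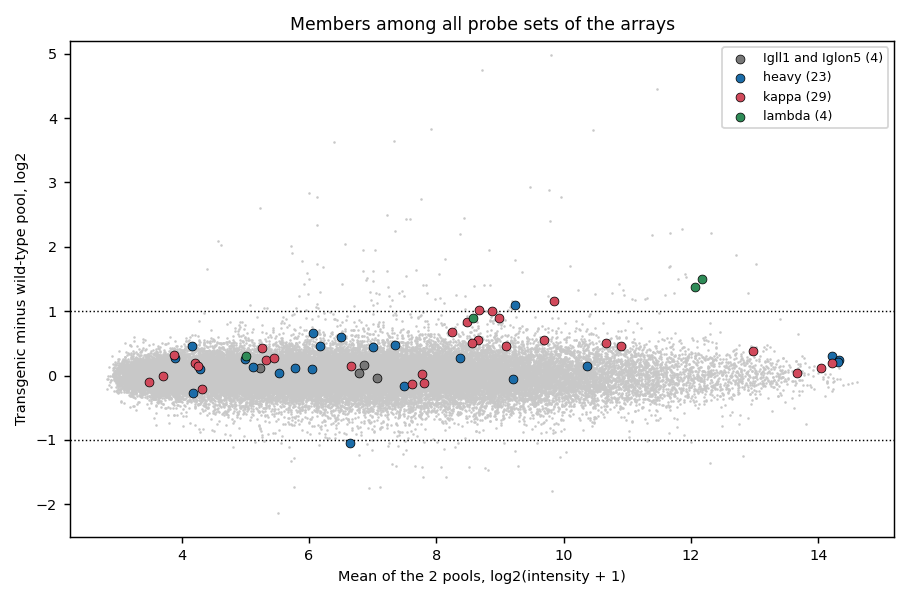
Difference between the pools (log2, vertical) against the mean of the 2 pools (log2(intensity + 1), horizontal) for all 45101 probe sets (grey) and the 60 members (coloured by chain); dotted lines mark 2-fold. The 2 brightest lambda probe sets are 2.59-fold and 2.83-fold higher, while the IgA and kappa constant region probe sets at the right end lie between 0.04 and 0.30 on the log2 scale.

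The level behind each reading set how far it could be read. Against the median of all values, an intensity of 78.5, 38 of the 60 members had a mean of the 2 pools at or above it. All 7 members past 2-fold were among these. With the higher of the 2 values taken instead, 40 passed, 3 of them through the transgenic pool alone and 1 through the wild-type pool alone. Of the 22 members with a mean below the median, 18 lay above 0, and none reached 2-fold in either direction. The deposited values carry no detection calls, so no segment is called absent. The SD between the differences of probe sets for the same gene was 0.23 over 4837 genes. It shows how far such probe sets disagree on the same 2 arrays. It says nothing of the spread between mice, or of any error that the probe sets of a gene share.

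Lambda was the chain with the highest median, 1.13 over its 4 probe sets. Iglv1 is a lambda variable segment and Iglc1 a lambda constant region. The Iglv1 probe set 1430523_s_at read 7776 in the transgenic against 2744 in the wild-type pool, which is 2.83-fold. The probe set 1424931_s_at, annotated to both Iglc1 and Iglv1, read 6865 and 2655, 2.59-fold higher. The next, 1447918_x_at for Iglv1, read 517 and 278, 1.86-fold higher and under the 2-fold line. The last, 1427292_at for Iglv1, was dim in both pools, at 34.6 and 27.9, with a difference of 0.30. The transgenic pool was thus higher in all 4, and the 3 bright ones carry a suffix (_s_at or _x_at) for probe sets that can match more than one transcript. Without such probe sets only the dim one was left for lambda. Other lambda segments were not analysed here under names of their own.

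The constant regions of IgA and kappa were among the brightest signals of both arrays and lay close together between the pools. Igha, the constant region of IgA, has 3 probe sets, with ranks 6, 8 and 15 by mean intensity among all 45101. These read 22300.5, 21925.5 and 21106.5 in the transgenic pool. In the wild-type pool they read 18935, 18965 and 17157. The transgenic pool was higher in each, by 0.24, 0.21 and 0.30, near the SD of 0.23 between probe sets of the same gene. That SD is not the error of a difference between the pools. The 3 probe sets that hold Igkc, the kappa constant region, are annotated also to Igkj1, Igkv6-23, Igkv4-53 and Igkv8-30. They read 20330.5, 17528 and 13089 in the transgenic pool against 17766, 16163.5 and 12769 in the wild-type pool. The differences were 0.19, 0.12 and 0.04, all above 0 and all smaller than that SD.

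These 6 probe sets lie near the top of the range of the arrays, which ended at 24147 in the transgenic and 25799 in the wild-type array. At least as bright as the dimmest of them were 55 probe sets that are no members. Of those, 23 lay above 0 and 32 below, the differences ran from -0.75 to 0.64, and none reached 2-fold. Whether readings at this brightness understate a difference was not tested. The lambda median lay 1.02 above the median of the Igkc probe sets on the log2 scale. That sets unlike parts side by side, since 3 of the 4 lambda probe sets are for the variable segment Iglv1 alone. The median was 0.89 for lambda variable and 0.45 for kappa variable probe sets, and 1.13 for all lambda and 0.32 for all kappa ones. The bright lambda readings were well below that top range, so the chains were read at different parts of the scale.

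**Figure D2:**
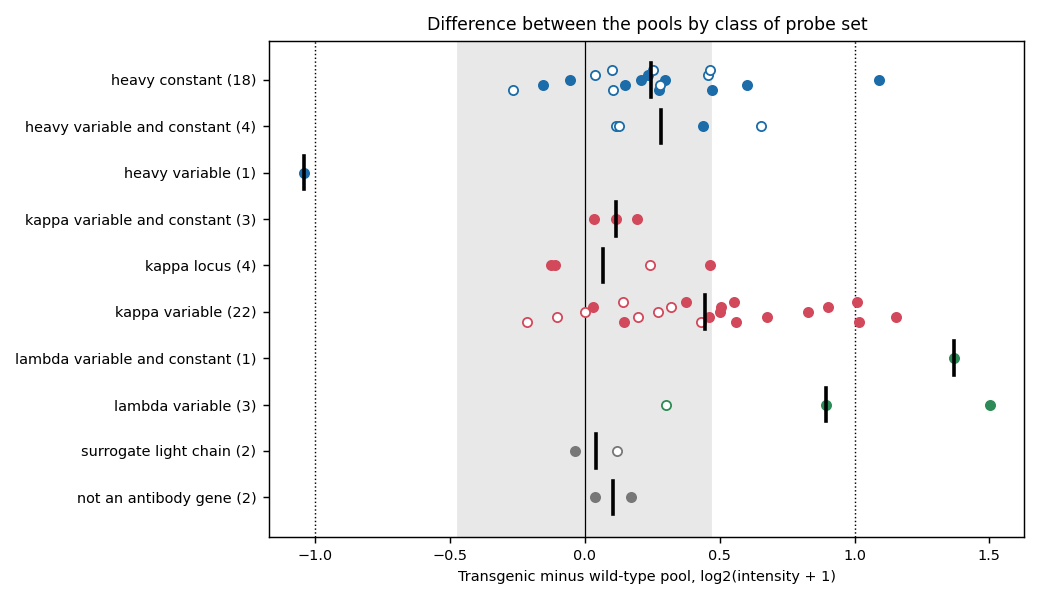
Difference between the pools (log2) for each of the 60 members, by chain and by the kind of symbol in the annotation; filled points have a mean at or above the median of all values, open points lie below it, black bars are class medians and the number of probe sets is in brackets. The grey band holds the central 95% of all probe sets, from -0.47 to 0.47, and dotted lines mark 2-fold. Some of the lambda, kappa variable and heavy chain probe sets lie beyond the band and others within it. Those of Igha and of the kappa constant region all lie within it.

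Kappa variable segments made up 3 of the 7 members past 2-fold, and 2 of these 3 lay so near the line that a pseudocount of 16 took them under it. Of 22 probe sets annotated to kappa variable segments alone, 19 lay above 0, 2 below and 1 was equal, with a median of 0.45. Higher by 2-fold were 3 of them (background 0.277%) and by 1.5-fold 6 (background 1.16%), while none was lower by 1.5-fold (background 1.14%). Each V segment encodes most of the variable domain and so a part of the antigen-binding site.

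Igkv15-103 read 1372 against 616 in the wild-type pool, which is 2.22-fold. Igkv14-111 read 578 and 285, 2.02-fold higher. Igkv6-14 read 661 and 328, 2.01-fold higher. The latter pair lay just inside the threshold, and each lay at 0.98 on the log2 scale with a pseudocount of 16. Just outside it were an Igkv9-120 probe set, 1452536_s_at, at 1.87-fold (693 against 371), and the lambda probe set at 1.86-fold.

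Probe sets that share a segment did not always give the same difference. Igkv9-120 has 2 bright probe sets, and the other, 1460423_x_at, read 1934 against 1365, a difference of 0.50. Its dim probe set read 12.1 in both pools. Besides the probe set of its own, Igkv6-14 shares 3 with Igkv6-23 and Igkv8-19. These lay at 0.56, 0.55 and 0.50, with intensities of 1002, 489 and 449 in the transgenic pool against 680, 333 and 316 in the wild-type pool. The 3 lie closer to each other than to the reading of 1.01 from Igkv6-14 alone. A further Igkv6-14 probe set, shared with Igkv6-23 only, was dim, at 15.5 against 12.2 (0.32).

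The family 4 segments of kappa were higher in the transgenic pool in all 3 probe sets. The shared Igkv4-55 and Igkv4-68 probe set read 475 against 268, a difference of 0.83. The one for Igkv4-68 alone read 382 against 239 (0.68), and that for Igkv4-72 read 643 against 467 (0.46).

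The brightest kappa variable probe set was that of Igkv8-30, at 9178 against 7076 and a difference of 0.38. Its segment is also named on the constant region probe sets. Igkv6-20 and Igkv19-93 were close between the pools, at 221 against 216 (0.03) and at 105 against 95.3 (0.14). The remaining kappa variable probe sets were dim, with intensities up to 47.1 and differences from -0.21 for Igk-V21 to 0.43 for Igkv5-39.

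Of the 4 probe sets annotated to the kappa locus as a whole (Igk), 2 lay above 0 and 2 below. The brightest read 2254 against 1632, a difference of 0.47. The next, at 215 against 232 and 187 against 204, differed by -0.11 and -0.13, and the last read 42.4 against 35.7. The annotation does not say which part of the locus they target.

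**Figure D3:**
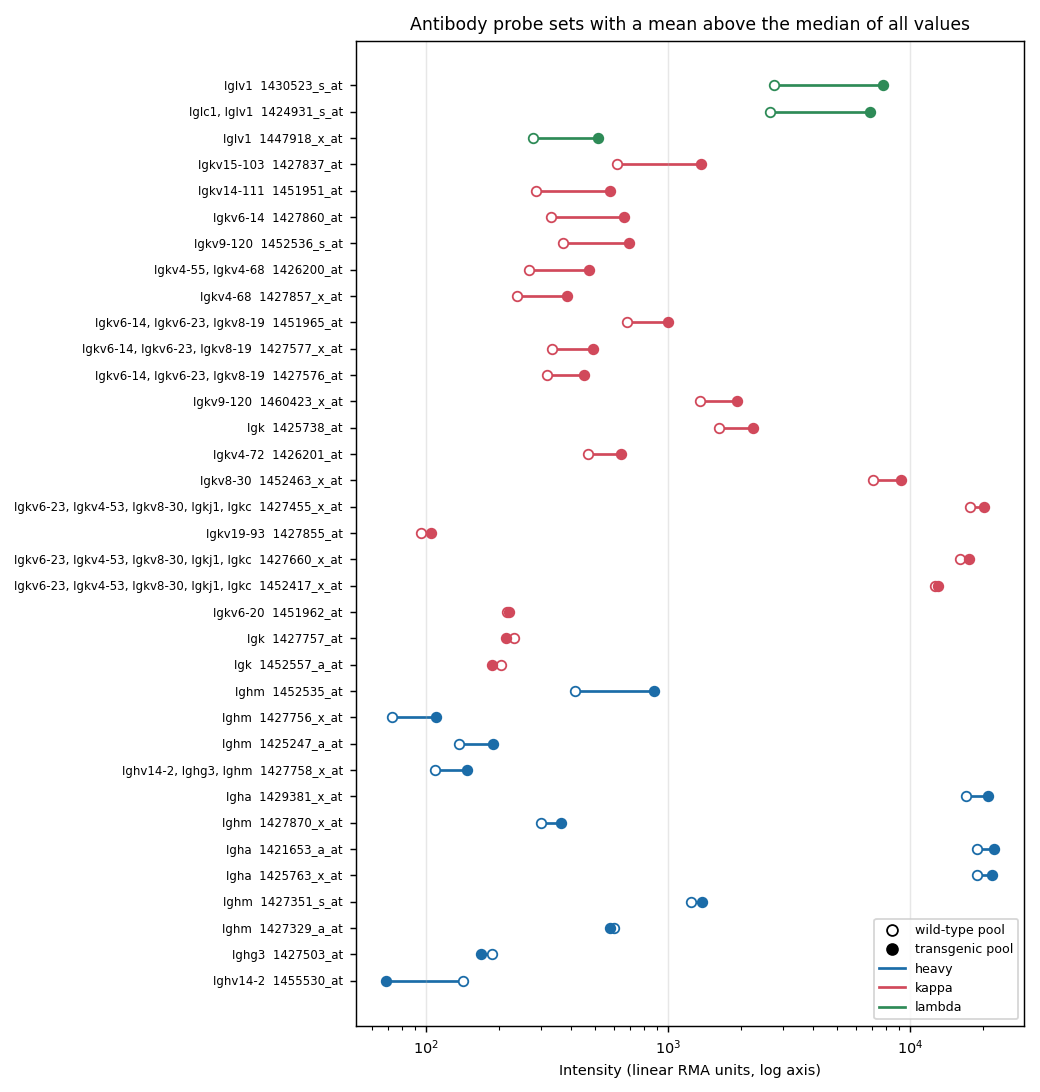
Intensity in the wild-type pool (open circles) and the transgenic pool (filled circles) on a log axis for the 35 heavy, kappa and lambda probe sets with a mean at or above the median of all values. The gap is widest in 2 lambda probe sets, followed by Igkv15-103, and runs the other way in Ighv14-2, and it is narrow in the Igha and Igkc probe sets at the right end.

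Heavy chain probe sets had a median of 0.24 over 23, of which 19 lay above 0 and 4 below. Ighm, the constant region of IgM, is named alone on 11 probe sets, and 10 of these lay above 0, with a median of 0.25. They did not give one answer. The brightest, 1427351_s_at, read 1389 against 1253, a difference of 0.15. The next in the wild-type pool, 1427329_a_at, read 580 against 602, a difference of -0.05. In contrast, 1452535_at read 881 against 413, 2.13-fold higher. A further one, 1427870_x_at, read 362 against 299, a difference of 0.27. The range over the 11, from -0.05 to 1.09, is wide beside the SD of 0.23 between probe sets of the same gene. No single direction is given for IgM here. The annotation does not say whether each of these targets the constant region or a rearranged variable region of an IgM clone.

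The others named Ighm alone were dimmer. Of these, 1427756_x_at read 110 against 72.3 (0.60), 1425247_a_at read 190 against 137 (0.47) and 1425324_x_at read 83.9 against 60.6 (0.46). Both 1427756_x_at and 1425324_x_at lay above the median intensity in the transgenic pool alone. The last 4 read from 17.9 to 67.8 and differed by 0.04 to 0.25.

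Ighg3, the constant region of IgG3, had 4 probe sets, 2 above 0 and 2 below. The one above the median intensity read 169 against 188, a difference of -0.16. The other 3 read at most 20.1 in either pool, with differences of 0.46, 0.28 and -0.27. These 3 signals are too dim to give a direction, and the brighter one differed little, so none is given for IgG3.

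Ighv14-2, a heavy variable segment, was the one member lower by 2-fold. Its own probe set read 68.5 in the transgenic against 142 in the wild-type pool, 2.06-fold lower, and passed the median intensity through the wild-type pool alone. The 3 probe sets that name Ighv14-2 together with Ighg3 and Ighm lay above 0, at 148 against 109 (0.44), 35.2 against 32.2 (0.13) and 56.4 against 52.1 (0.11). With a pseudocount of 16 in place of 1, Ighv14-2 lay at -0.90 and was no longer past 2-fold. The probe set shared by Ighv1-72 and Ighm read 82.8 against 52.2, a difference of 0.65, and passed through the transgenic pool alone.

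The members outside the antibody chains lay near 0. Igll1 read 132 against 135 and 38.1 against 35.0, and Iglon5 read 123 against 109 and 111 against 108. Their differences ran from -0.04 to 0.17.

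The genes that serve antibody secretion stayed under 2-fold, while most of those of B cells lay lower. For each gene the probe set with the highest mean was taken, and over all 18194 genes the background was 0.412% higher and 0.132% lower by 2-fold, with a median of 0.0096. The lists and the members were chosen with earlier results of these data known. Of 17 plasma cell and secretion genes measured, none was past 2-fold in either direction, 14 lay above 0 (82.4%, beside 51.3% of all genes), and the median was 0.13. At 1.5-fold 3 were higher (background 1.23%) and none was lower (background 1.07%). These were Mzb1, a chaperone of antibody assembly (1020 against 671, 1.52-fold), Txndc5, a disulfide isomerase (2499 against 1648, 1.52-fold), and Fkbp11, a prolyl isomerase (147 against 88.4, 1.65-fold). The lowest of the 3 probe sets of Fkbp11 lay at -0.08. Jchain, which links IgA and IgM into polymers, read 10732 against 9809 (0.13). Pigr, the epithelial receptor that carries these polymers, read 13821 against 15230.5 (-0.14), with its other probe set at 0.13. Xbp1, a transcription factor of secretory cells, read 5031 against 4832 (0.06), and its 4 probe sets ran from -0.24 to 0.43. Ell2 was the lowest of the list, at 1023 against 1344 (-0.39), with its other probe set at -0.23.

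Among 14 immunoglobulin receptors, 1 was higher and 1 lower by 2-fold, and the median was 0.17. Fcer1a, the IgE-binding chain of the mast cell receptor, read 109 against 31.0, 3.45-fold higher, with a mean below the median intensity of the arrays. Fcmr, the IgM receptor of B cells, read 97.2 against 254, 2.59-fold lower. Lgals3, a lectin that can bind IgE, read 10547 against 7727 (0.45), and Fcgrt, the neonatal Fc receptor, read 863 against 806 (0.10).

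Of 17 B cell genes, 3 were lower and none higher by 2-fold, 14 lay below 0 (beside 8451 of 18194 over all genes), and the median was -0.57. At 1.5-fold 8 were lower (background 1.07%) and 1 was higher (background 1.23%). Those past 2-fold were Ms4a1, the antigen CD20 (74.9 against 251), Cr2, a complement receptor whose mean was below the median intensity (29.0 against 98.3), and Fcmr. The antigen receptor subunits Cd79a and Cd79b read 234 against 300 (-0.36) and 151 against 233 (-0.62), and Cd22, an inhibitory receptor, 208 against 334 (-0.68). The 3 above 0 were Spib, a transcription factor that other cell types also use, at 266 against 165 (1.61-fold higher), Blnk, an adaptor of B cell receptor signalling, at 600 against 534 (0.17), and the kinase Btk at 0.03. Most B cell genes thus lay below 0 while most antibody probe sets lay above it in the same 2 pools. In tissue RNA, fewer cells of a type and less RNA per cell cannot be told apart. The part of B cell or plasma cell number in the antibody readings was not tested.

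In the list for germinal centres, recombination and class switching, none of 23 genes was past 2-fold, and the median was -0.04. Aldh1a1, a retinal dehydrogenase, read 6290 against 7480 (-0.25), Mki67, a proliferation marker, 898 against 1031 (-0.20) and Apobec1, an RNA-editing deaminase, 830 against 730 (0.19). Tnfsf13b, the B cell survival factor BAFF, read 377 against 231 (0.71), the highest of its 3 probe sets, of which the lowest lay at 0.25. Rag1 and Rag2, the recombinase genes, were below the median intensity in both pools.

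In the list for lymphoid follicles and gut homing, 1 of 15 was lower by 2-fold and the median was -0.11. That gene was Glycam1, a mucin-like ligand of vessels that lymphocytes enter by (64.8 against 131). Cxcl13, the chemokine of B cell follicles, read 168 against 301 (-0.84), and its other probe set lay past 2-fold, at -1.75. Ltb, a cytokine of follicle formation, and Madcam1, the mucosal addressin, differed by -0.59 and -0.52. In the whole list 10 genes lay below 0 and 5 above it (33.3%, beside 51.3% of all genes). The highest were the chemokine receptors Ccr9 and Ccr10, at 0.34 and 0.31, with the lowest of 5 Ccr9 probe sets at -0.08. The chemokine Ccl25 read 4978 against 5616 (-0.17), Ccl28 461 against 486 (-0.07) and the integrin chain Itga4 372 against 343 (0.11). Each of these genes has probe sets on both sides of 0. The highest of Ccl25 and Ccl28 lay at 0.09 and 0.46, and the lowest of Itga4 at -0.01.

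The antigen receptor segments of T cells did not show the size of difference seen in lambda. All 17 probe sets of T cell receptor loci stayed under 2-fold, from -0.32 to 0.35, with a median of 0.08. Only 8 of the 17 had a mean at or above the median intensity. All were dimmer than the 2 lambda probe sets past 2-fold, which read 2655 or more in both pools. The brightest, shared by Trgv4 and Trgv2, read 585 against 487 (0.26), and the next, both for Trav9d-3, lay at 0.08 and 0.11. Of the 8 T cell genes none was past 2-fold, and the median was 0.0029. Zap70, a kinase of T cell receptor signalling, read 439 against 406, and Cd3e and Cd3g, chains of the receptor complex, read 363 against 376 and 238 against 235.

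The epithelial markers fitted the labelled tissue and lay close together between the pools. All 7 measured were bright, at 3710 or more in both pools, with a median of -0.11. The brightest were Fabp2, a fatty acid-binding protein (18917 against 20124, a difference of -0.09), the mucin Muc2 (0.09) and Lct, lactase (-0.32).

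**Figure D4:**
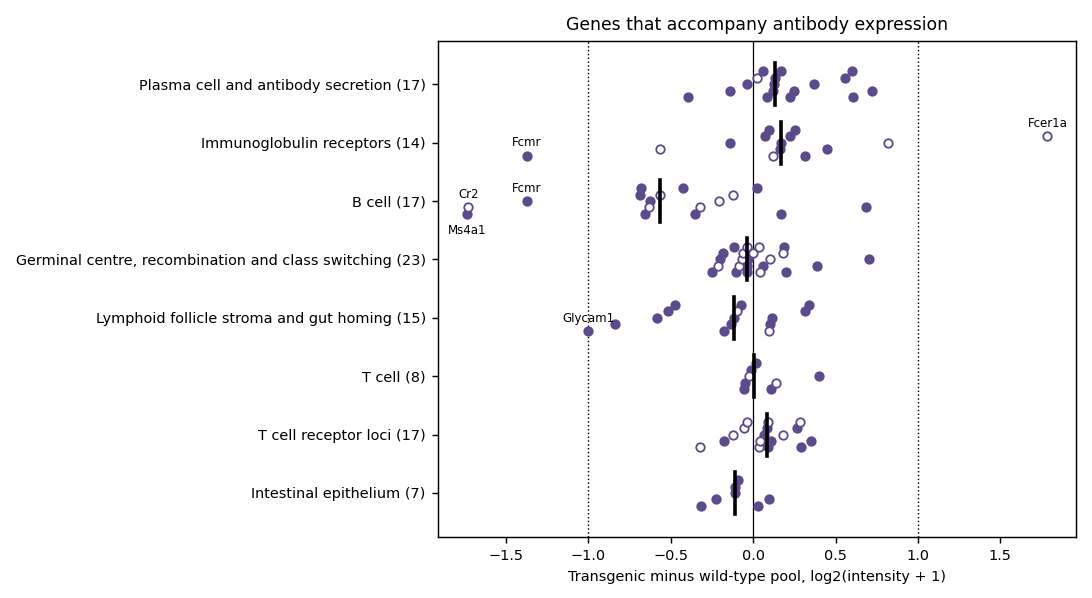
Difference between the pools (log2) for genes that accompany antibody expression, 1 point per gene (1 per probe set for T cell receptor loci); filled points have a mean at or above the median of all values, black bars are list medians, dotted lines mark 2-fold and genes past it are named. The B cell list has its median at -0.57 and the plasma cell and secretion list at 0.13.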

How the data were processed

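The authors deposited 1 intensity per probe set and array on a linear scale, and RMA is named, without a version, in the submitters' processing notes. Their array annotation and genome build: not given in the sources used here. RMA makes the distributions of arrays alike: the medians were 78.7 and 78.3 (r = 0.994 between the log2 values of the arrays, across probe sets, which are not replicates). Symbols came from a platform annotation table, in which 34958 probe sets carry 1 symbol, 932 several and 9211 none. Of the 60 members, 13 carry several symbols. Of the 30 gene identifiers behind them, 29 were found in the RefSeq table of GRCm38.p6, which gave chromosomes and the order of segments only.

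Differences of log2(intensity + 1) were computed with Python 3.11.15, numpy 2.4.6 and pandas 2.3.3. The procedure was tested on simulated data in which all planted changes were larger than 2-fold. That test says nothing of calls near the 2-fold line. There is 1 array per group, so size (2-fold) replaces a test, and the share of all probe sets past that size is the background. The members, lists and rules were chosen with earlier results of these data known. The rule names all probe sets outside the kappa variable class, the kappa variable ones past 2-fold and the 5 brightest of that class, and from each list the members past 2-fold and the 3 brightest; any further name was picked with its value known. The filters on low values, the pseudocount, quantile normalization, the leaving out of shared probe sets, averaging and the fold were varied.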

Additional observations from a re-analysis of the deposited data

How the results depend on the processing

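No paired analysis was possible because each group has 1 array. Of the 60 member probe sets, 0 turned sign with a pseudocount of 16 or under quantile normalization. A median counted as moved when it changed by more than 0.23, the SD between probe sets of one gene. The median over all members ran from 0.16 to 0.50 over the alternatives, with 0.50 for means above the upper quartile. The lambda median was 1.37 under each of the 3 filters on low values, 0.89 with 1-symbol probe sets and 0.30 without _x_at and _s_at probe sets; for lambda variable probe sets alone it was 1.20 under each filter and 0.30 without those types. The median of the mixed heavy variable and constant class was 0.55 with the filter on the higher value, and that of the kappa locus class 0.47 at the upper quartile but -0.11 under both filters at the median. The Igll1 median turned to -0.04 under those filters. Members higher by 2-fold numbered 6 under each filter and under quantile normalization, 5 with 1-symbol probe sets, 4 with a pseudocount of 16, without _x_at and _s_at probe sets and with symbol fields averaged, 12 at 1.5-fold and 0 at 3-fold. Igkv6-14 and Igkv14-111 lay at 0.98 each with a pseudocount of 16. Members lower numbered 0 at the upper quartile, with a pseudocount of 16 and at 3-fold. Over all probe sets the counts were 60 higher and 20 lower at the upper quartile, 33 lower with a pseudocount of 16, 522 and 515 at 1.5-fold, and 51 and 5 at 3-fold. Immunoglobulin receptors higher numbered 0 with the filter on the mean at the median or the upper quartile. At the upper quartile, 0 B cell genes, 0 immunoglobulin receptors and 0 follicle and homing genes were lower, the last also with a pseudocount of 16. Near 0, the follicle and homing median turned to 0.02 at the upper quartile, and that of T cell genes had the other sign under 1 of 6 alternatives (-0.0036). With no replicates and no detection calls, signal level and the spread between probe sets are the only guides given. Neither is the error of a difference between the pools.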

Other observations

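The order of the kappa variable segments along their locus did not separate high from low differences. Over 13 segments with a probe set of their own in RefSeq order, Igkv6-14, nearest the joining segments, lay at 1.01, and Igkv15-103 and Igkv14-111, neighbours in that order in the distal part, lay at 1.15 and 1.02. Between them, in order, were Igkv19-93 at 0.14 in both its probe sets, Igkv4-72 at 0.46, Igkv4-68 at 0.68, Igkv5-39 at 0.43, Igkv8-30 at 0.38, Igkv6-20 at 0.03 and Igkv6-15 at 0.27. More distal than Igkv14-111 lay Igkv1-117 at -0.10, Igkv9-120 at 0, 0.90 and 0.50, and Igkv1-135 at 0.20. Igkv5-39, Igkv6-15, Igkv1-117 and Igkv1-135 were dim in both pools. So were the Igkv19-93 probe set 1427856_a_at and the Igkv9-120 probe set at 0.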
